A study of Mus musculus with 6 samples.

Results

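The integrin genes measured here were the 34 probe sets, carrying 32 gene symbols, whose symbol in the deposited table begins with Itga or Itgb, out of 25123 probe sets with a symbol. They comprised 19 probe sets of 18 alpha chains, 8 probe sets of the 8 beta chains, and 7 probe sets of 6 further genes named after a beta chain. The members were taken by name, and that choice was made with earlier results of these data known. RNA came from mouse bone marrow cells that began as c-kit+ progenitors and were transformed by MLL-AF9, a leukemia fusion oncogene that the cells of every array carry. In 3 arrays the cells had in addition received pMIG-TGIF1, a GFP-marked retroviral vector with TGIF1, a homeodomain repressor of TGF-beta and retinoid responses, and in the other 3 arrays they had received the empty vector pMIG. Cells were sorted for GFP on day 3 after transduction, kept in medium for 1 day and read on Affymetrix Mouse Gene 1.0 ST arrays. The labels give neither the animals' strain and age nor whether the arrays of a group are separate transductions. The p-values here therefore rest on array-to-array spread alone, and that spread may be technical.

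Integrins are surface receptors made of an alpha and a beta chain that hold cells to matrix proteins or to other cells. A chain reaches the surface only after pairing, and the amount of receptor at the surface was not measured here. On myeloid cells the Itgb2 chain pairs with Itgal, Itgam, Itgax or Itgad to form the leukocyte integrins, and the Itgb1 chain pairs with many alpha chains to bind fibronectin, laminin and collagen. Itgb7 pairs with Itga4 or Itgae and is known for homing to, and retention in, mucosal tissue. Talin and kindlin bind the beta chain's tail and switch the receptor to its adhesive state.

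The Tgif1 probe set read 239, 239 and 258 in the arrays labelled pMIG-TGIF1, against 320, 376 and 408 in pMIG arrays, where all values are RMA intensities on a linear scale. It thus went against the labels (log2 -0.58 ± 0.11 SE, limma adjusted p = 0.00286). Whether this probe set reads the vector's transcript was not tested, and every direction below rests on the labels. Array medians on the log2 scale ran from 6.41 to 6.45 in the arrays labelled pMIG-TGIF1 and from 6.31 to 6.33 in pMIG. Most myeloid marker genes were bright in both groups, with the 3 brightest being the lysozyme Lyz2 and the granule proteases Elane and Prtn3. Mpo was the dimmest of the 12 genes listed, at 107, 132 and 60.2 in the arrays labelled pMIG-TGIF1, against 185, 197 and 154 in pMIG. The list summed to between 32836 and 34791 in the arrays labelled pMIG-TGIF1 and to between 31775 and 32870 in pMIG. Members of that list moved apart within this sum, with Lyz2 (1.41-fold) and the leukocyte phosphatase Ptprc (1.55-fold) called higher, and Prtn3 (1.54-fold), the sialic acid receptor Cd33 (2.13-fold) and the myeloperoxidase gene Mpo (1.88-fold) called lower (limma adjusted p at most 0.0168). These calls were 16.7% of the list higher and 25.0% lower, against 11.5% and 13.2% over all probe sets. Those shares include dim probe sets, whereas 0 of the 12 genes lay in the dimmer 50% of the table. Without that 50%, 2350 of 12561 probe sets were called higher and 3407 lower, so the list was not set apart by its number of calls. In bulk samples fewer cells of a type and less RNA per cell cannot be told apart.

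Of the 34 integrin probe sets, 9 rose and 3 fell in the arrays labelled pMIG-TGIF1, where a call is a Benjamini-Hochberg adjusted p under 0.05 from limma over all probe sets with a symbol. The 9 rises were those of Itgb7, Itga8, Itga6, Itgav, Itgax, Itga1, Itgal, Itgae and Itgb1. The 3 falls were those of Itgb2, Itgb1bp1 and Itgb1bp2. These were 26.5% of the integrin probe sets higher and 8.82% lower, against 11.5% higher and 13.2% lower over all probe sets. In either direction 24.7% of all probe sets were called. Centring each array on its median moved the middle of all log2 differences by -0.11, and then 9 integrin probe sets were called higher and 5 lower, with Itga2 (log2 -0.32) and Itga10 (log2 -0.39) added to the falls. Over all probe sets the same step turned 2892 higher and 3308 lower calls into 2179 and 4870.

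**Figure D1:**
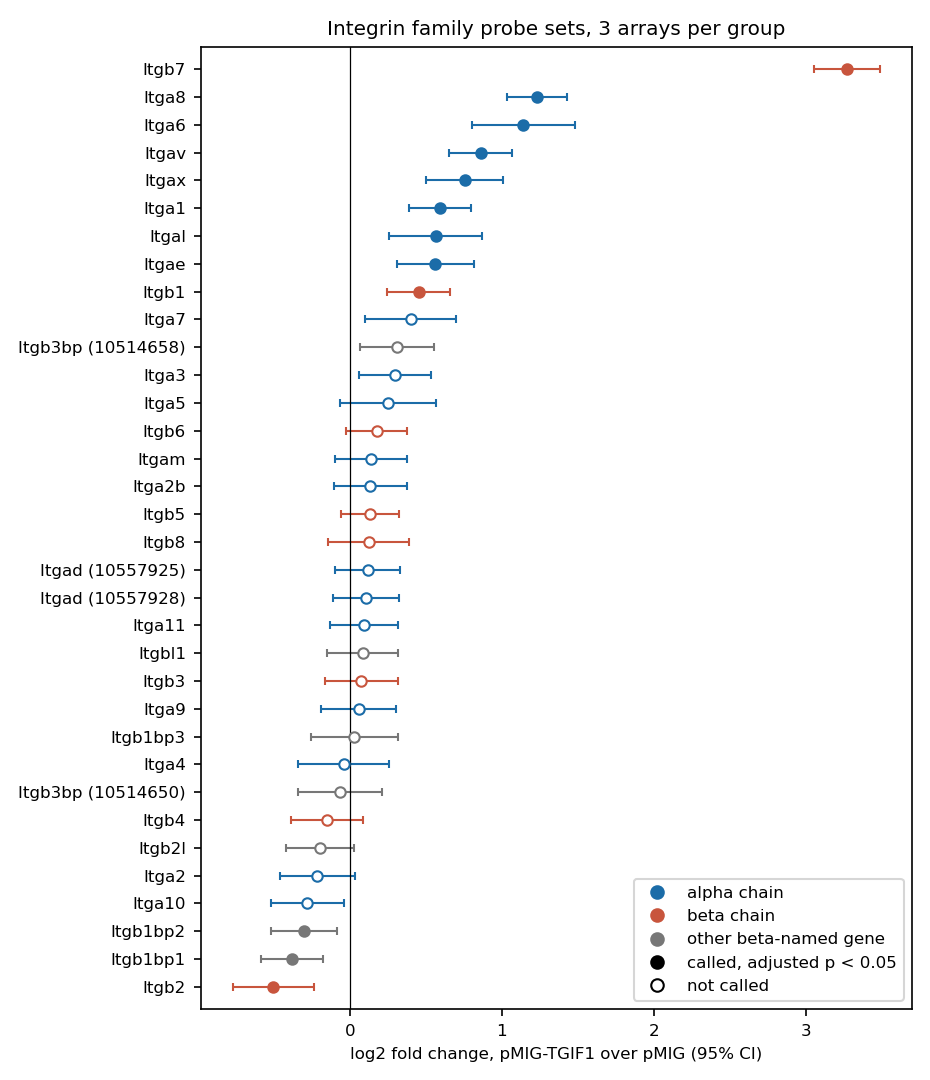
Log2 fold change of each integrin family probe set, arrays labelled pMIG-TGIF1 over pMIG arrays, with its 95% confidence interval from limma (3 arrays per group; probe set numbers are given where a symbol has 2). Filled points passed an adjusted p of 0.05; Itgb7 stands at 3.27, and the next highest probe set, Itga8, at 1.23.

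Of the 19 alpha probe sets 7 rose, 0 fell and 12 were not called, with a median log2 fold change of 0.25 (range -0.28 to 1.23). By limma 1 alpha probe set, Itga10, was lower at an unadjusted p under 0.05. The negative alpha estimates were those of Itga4, Itga2 and Itga10, of which Itga2 and Itga10 were called lower after array median centring. Of the 8 beta chains 2 rose, 1 fell and 5 were not called, with a median of 0.13 (range -0.50 to 3.27). The median over all probe sets was 0.010. The difference between the classes was not tested, because the members were chosen with earlier results known. All 3 arrays labelled pMIG-TGIF1 lay above all pMIG arrays in 14 of the 34 integrin probe sets (41.2%, against 18.7% of all probe sets), and below them in 4 (11.8%, against 19.7%). Over all probe sets 38.4% did not overlap between the groups in either direction.

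Itgb7 had the largest change of the family. It read 907, 844 and 868 in the arrays labelled pMIG-TGIF1, against 87.0, 99.3 and 85.4 in pMIG arrays. The groups stood far apart, each with little spread. The difference was 9.65-fold (95% CI 8.32 to 11.2, log2 3.27 ± 0.097 SE, limma adjusted p = 4.63e-08), the 19th highest of 25123 probe sets. The authors' deposited table gives the same signed fold change, 9.65.

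The partners of Itgb7 changed much less. Itgae, the CD103 chain that binds E-cadherin when joined to Itgb7, read 44.7, 43.7 and 55.5 in the arrays labelled pMIG-TGIF1, against 33.7, 33.6 and 29.8 in pMIG. It rose 1.48-fold (95% CI 1.24 to 1.76, limma adjusted p = 0.00445), and all 3 arrays labelled pMIG-TGIF1 were above all pMIG arrays, although the probe set lay in the dimmer 50% of the table and lost its call without moderation (adjusted p = 0.0638). Itga4, the chain shared by Itgb7 and Itgb1 that binds VCAM1 and fibronectin, read 738, 900 and 615 in the arrays labelled pMIG-TGIF1, against 822, 745 and 728 in pMIG. These Itga4 values overlapped, with a log2 difference of -0.041 (95% CI -0.34 to 0.26, limma adjusted p = 0.879), and the sign turned without pMIG-TGIF1 replicate 3 (0.094).

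On chromosome 15 the RefSeq gene table (GRCm38.p6) places Rarg, the retinoic acid receptor gamma gene, next to Itgb7 on one side and Zfp740 and Csad on the other. Rarg read 194, 180 and 209 in the arrays labelled pMIG-TGIF1, against 111, 106 and 109 in pMIG arrays, and rose (log2 0.84 ± 0.094 SE, limma adjusted p = 0.000111). Csad, an enzyme of taurine synthesis, also rose (log2 0.57 ± 0.11, limma adjusted p = 0.00307). The zinc finger gene Zfp740, which lies between Csad and Itgb7, was not called (log2 0.22 ± 0.12, limma adjusted p = 0.222), but was called higher without pMIG replicate 1 (log2 0.35, adjusted p = 0.0475). The neighbours thus differed by smaller amounts than Itgb7.

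Cells of other lineages also carry Itgb7, and their markers were therefore set beside it. In the T and NK cell list 3 of 11 genes were called higher and 0 lower, against 11.5% higher and 13.2% lower over all probe sets, and the list summed to between 776 and 822 in the arrays labelled pMIG-TGIF1, against 600 to 664 in pMIG arrays. The brightest gene of that list was Nkg7, a granule membrane protein, which made up most of the gap between these sums. Nkg7 read 441, 428 and 453 in the arrays labelled pMIG-TGIF1, against 270, 271 and 336 in pMIG. The T cell receptor genes Cd3d and Cd3g were also called but dim, with Cd3d at 32.3, 32.5 and 39.0 in the arrays labelled pMIG-TGIF1, against 21.9, 21.3 and 20.3 in pMIG arrays. Lck, a T cell kinase and the next brightest of the list, read 66.8, 66.5 and 63.4 in the arrays labelled pMIG-TGIF1, against 70.9, 74.2 and 79.9 in pMIG arrays. It was not called (log2 -0.19, limma adjusted p = 0.171), but was called lower after quantile normalization (log2 -0.31, adjusted p = 0.0341) and array median centring (log2 -0.30, adjusted p = 0.0362). Cd3e was not called (limma adjusted p = 0.464), and 10 of the 11 probe sets lay in the dimmer 50% of the table. In the mast cell and basophil list 0 of 11 were called higher and 1 lower (Ms4a2, an IgE receptor subunit, log2 -2.01), with sums of 475 to 476 in the arrays labelled pMIG-TGIF1, against 570 to 600 in pMIG. RMA gives no value of 0 and no detection call, and the part of these cells in the Itgb7 result was not tested.

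Among the leukocyte integrins the shared beta chain was called lower and alpha chains Itgax and Itgal higher, whereas Itgam and Itgad were not called. Itgb2, the CD18 chain, read 3347, 3562 and 4501 in the arrays labelled pMIG-TGIF1, against 5569, 5057 and 5423 in pMIG arrays. The groups did not overlap, although the third array labelled pMIG-TGIF1 stood closest to pMIG. Itgb2 was 1.42-fold lower (log2 -0.50 ± 0.12 SE, 95% CI -0.77 to -0.24, limma adjusted p = 0.0106), and the call was lost without moderation (adjusted p = 0.0948).

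Itgax, which encodes CD11c, moved the other way. It read 335, 355 and 436 in the arrays labelled pMIG-TGIF1, against 214, 214 and 235 in pMIG arrays, and was 1.69-fold higher (95% CI 1.41 to 2.01, limma adjusted p = 0.000762). Itgal, which encodes the CD11a chain of LFA-1, read 317, 353 and 347 in the arrays labelled pMIG-TGIF1, against 266, 182 and 249 in pMIG arrays. The groups of Itgal values did not overlap, and it was 1.48-fold higher (95% CI 1.19 to 1.83, limma adjusted p = 0.0123), a call lost without moderation (adjusted p = 0.124).

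The other Itgb2 partners gave no call. Itgam, which encodes the CD11b chain of the complement receptor Mac-1, read 3146, 3289 and 3721 in the arrays labelled pMIG-TGIF1, against 3265, 2766 and 3186 in pMIG arrays, with overlapping values (log2 0.14, 95% CI -0.097 to 0.38, limma adjusted p = 0.419). The brighter probe set of Itgad, which encodes CD11d, read 66.8, 69.7 and 71.8 in the arrays labelled pMIG-TGIF1, against 69.6, 63.9 and 58.9 in pMIG. Both Itgad probe sets overlapped between groups (log2 0.12 and 0.10, limma adjusted p = 0.462 and 0.521), and their sign turned under a renewed normalization or centring. Itgb2l, a close relative of Itgb2, read 75.7, 71.7 and 64.4 in the arrays labelled pMIG-TGIF1, against 86.0, 81.0 and 75.3 in pMIG (log2 -0.20, limma adjusted p = 0.210), and whether its probes also read Itgb2 was not tested.

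Itgam, Itgax and Itgad lie in this order on chromosome 7, with only pseudogenes between them in the RefSeq gene table. Within that run Itgax was called higher, whereas Itgam and Itgad on either side were not called. To show this contrast beside their sequence, the 250 bases before 1 RefSeq transcript start of Itgb7, Itgax and Itgam are printed from the plus strand for Itgax (chr7:128129300-128129549) and Itgam (chr7:128062390-128062639) and from the minus strand for Itgb7 (chr15:102231936-102232185), all on GRCm38.p6. Capitals mark letters of 3 motifs searched on both strands, TGTCA (the core bound by TGIF proteins), TGANTCA (AP-1) and GAGGAA (PU.1), as these letters or their reverse complement.
Itgb7: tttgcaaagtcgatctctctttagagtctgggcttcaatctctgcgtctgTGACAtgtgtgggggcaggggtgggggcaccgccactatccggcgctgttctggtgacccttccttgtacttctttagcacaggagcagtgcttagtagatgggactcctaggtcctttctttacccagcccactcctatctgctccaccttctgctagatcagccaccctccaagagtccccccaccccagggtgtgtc
Itgax: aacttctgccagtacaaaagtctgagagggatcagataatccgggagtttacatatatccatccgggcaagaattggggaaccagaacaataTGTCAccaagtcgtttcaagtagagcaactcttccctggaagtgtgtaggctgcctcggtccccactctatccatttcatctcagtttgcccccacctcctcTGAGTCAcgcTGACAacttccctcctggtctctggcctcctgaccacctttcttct
Itgam: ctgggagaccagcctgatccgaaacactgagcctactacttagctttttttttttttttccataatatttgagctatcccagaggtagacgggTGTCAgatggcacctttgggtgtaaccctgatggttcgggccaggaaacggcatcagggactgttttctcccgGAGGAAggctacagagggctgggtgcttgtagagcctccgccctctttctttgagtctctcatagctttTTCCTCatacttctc

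The Itgb7 window held 1 TGTCA match, 200 to 196 bases before the start. The Itgax window held 2 TGTCA matches and 1 TGANTCA match, and the AP-1 letters lay 56 to 50 bases before the start. The Itgam window held 1 TGTCA match and 2 GAGGAA matches. RefSeq windows were found for 23 of the 32 genes, 25 windows in all, of which 14 held TGTCA, 1 TGANTCA (Itgax) and 9 GAGGAA. Among 32851 mouse windows of the same length, 40.0% held TGTCA, 6.75% TGANTCA and 23.3% GAGGAA. Of the 6 windows of called-higher members 3 held TGTCA, and of the 18 windows of members not called 11 did. These matches describe letters only.

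**Figure D2:**
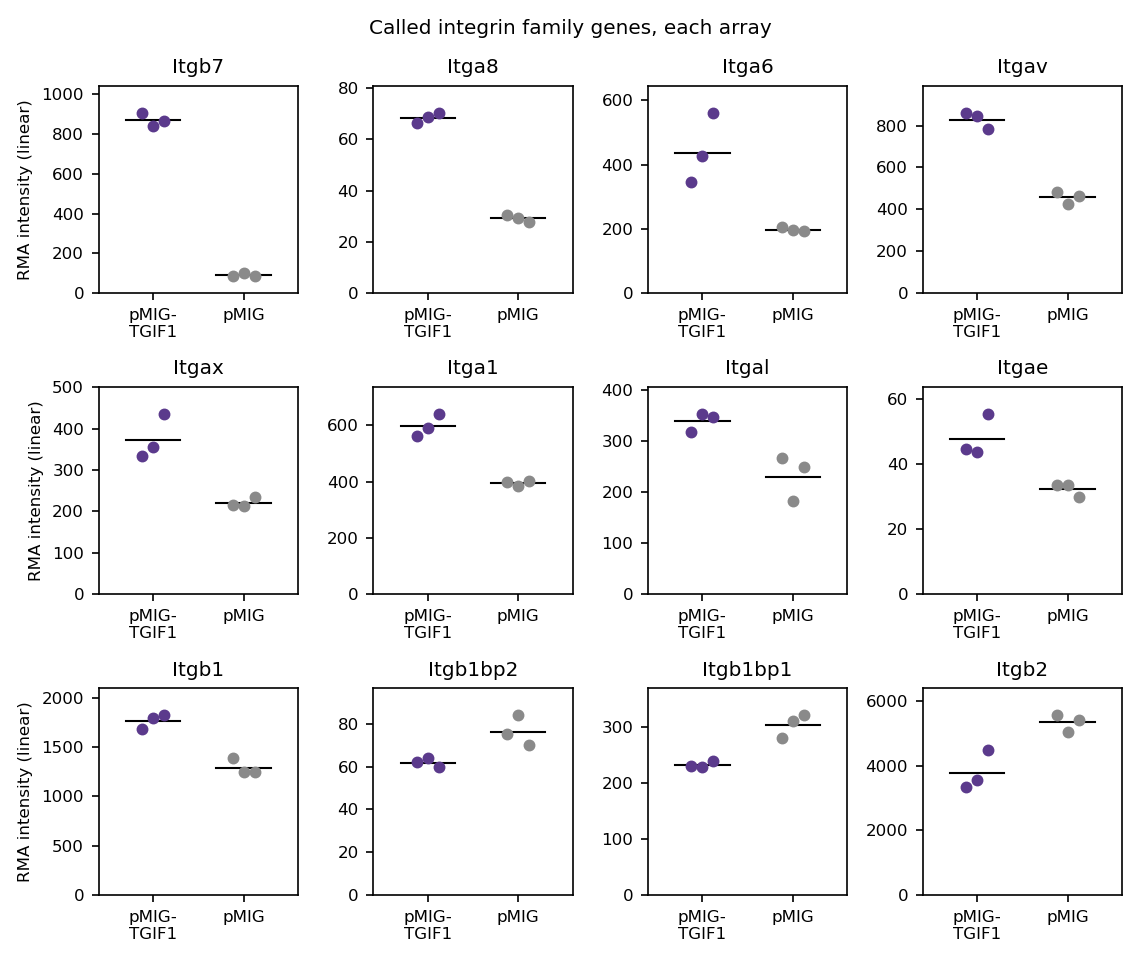
RMA intensity on a linear scale of the 12 called integrin family genes on each array, with arrays labelled pMIG-TGIF1 at left and pMIG arrays at right; bars are geometric means of 3 arrays. In none of the 12 panels do the groups overlap, and Itgb7 is the one with the widest gap.

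The Itgb1 group rose in part. Itgb1, the common partner of the matrix-binding alpha chains, read 1681, 1791 and 1826 in the arrays labelled pMIG-TGIF1, against 1386, 1243 and 1245 in pMIG arrays. It was 1.37-fold higher (log2 0.45 ± 0.093 SE, limma adjusted p = 0.00473), with no overlap between the groups.

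Among its partners Itga6, a laminin receptor chain, read 346, 426 and 560 in the arrays labelled pMIG-TGIF1, against 206, 195 and 193 in pMIG arrays. It was 2.20-fold higher (95% CI 1.74 to 2.79, limma adjusted p = 0.00034). The arrays labelled pMIG-TGIF1 spread widely for Itga6 but each stood above every pMIG array. Itga1, a collagen receptor chain, read 563, 589 and 641 in the arrays labelled pMIG-TGIF1, against 400, 384 and 403 in pMIG arrays, and was 1.51-fold higher (95% CI 1.31 to 1.74, limma adjusted p = 0.000877).

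Itga8, an RGD-binding chain known from kidney and smooth muscle, read 66.4, 68.7 and 70.3 in the arrays labelled pMIG-TGIF1, against 30.3, 29.4 and 27.8 in pMIG arrays. It was 2.35-fold higher (95% CI 2.05 to 2.70, limma adjusted p = 6.77e-06), with very little spread within either group. Its mean lay in the dimmer 50% of probe sets, where no detection call was available, and its kidney ligand Npnt was not called (log2 0.19, limma adjusted p = 0.186).

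Itga5, the fibronectin receptor chain, was decided by a single array. It read 466, 518 and 342 in the arrays labelled pMIG-TGIF1, against 381, 364 and 354 in pMIG arrays, and was not called (log2 0.25, limma adjusted p = 0.258). Without pMIG-TGIF1 replicate 3 it was called higher (log2 0.42, adjusted p = 0.0123). Itga9, which binds tenascin and VCAM1, read between 29.0 and 31.0 in the arrays labelled pMIG-TGIF1, against 24.7 to 31.9 in pMIG, with overlapping values (limma adjusted p = 0.783).

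Itgav, the chain that joins several beta chains to bind vitronectin, osteopontin and latent TGF-beta, read 860, 845 and 784 in the arrays labelled pMIG-TGIF1, against 483, 426 and 463 in pMIG arrays. It was 1.81-fold higher (95% CI 1.57 to 2.10, limma adjusted p = 9.93e-05). Apart from Itgb1, none of its measured beta partners was called. Itgb5 read 1249, 1196 and 1203 in the arrays labelled pMIG-TGIF1, against 1097, 1092 and 1138 in pMIG, a log2 difference of 0.13 (95% CI -0.058 to 0.32, limma adjusted p = 0.331) although the groups did not overlap. Itgb3 read 279, 287 and 302 in the arrays labelled pMIG-TGIF1, against 314, 248 and 264 in pMIG arrays, and overlapped (log2 0.075, limma adjusted p = 0.702).

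The dim beta chains Itgb8 and Itgb6, both known to free TGF-beta from its latent form when joined to Itgav, did not exceed 29.0 on any array and gave no call (limma adjusted p = 0.540 and 0.204). Itgb8 read 27.6, 27.2 and 28.3 in the arrays labelled pMIG-TGIF1, against 26.7, 21.2 and 29.0 in pMIG. Itga2b, which joins Itgb3 to form the platelet fibrinogen receptor, read 44.8, 55.3 and 57.2 in the arrays labelled pMIG-TGIF1, against 47.4, 47.9 and 47.1 in pMIG, with overlap (limma adjusted p = 0.449). Of 9 measured megakaryocyte and platelet markers, 1 (Treml1) was called higher and 0 lower, with list sums of 1392 to 1681 in the arrays labelled pMIG-TGIF1, against 1262 to 1322 in pMIG. The 1 higher call was 11.1% of the list, near the 11.5% called higher over all probe sets. Itgb4, the hemidesmosome partner of Itga6, read 65.5, 55.3 and 54.1 in the arrays labelled pMIG-TGIF1, against 66.1, 67.8 and 59.6 in pMIG arrays, with overlap (limma adjusted p = 0.384).

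For 16 known pairs the change of the alpha chain was set against that of its beta partner within each array, which shows unequal change and not that either chain stayed level. In 13 pairs the within-array log2 ratio of alpha to beta differed between the groups without overlap, and each of these had an exact two-sided permutation p of 0.1, the smallest that 20 assignments allow (0.123 adjusted over the 16 pairs). The design thus cannot reach 0.05 for a pair. Over all single probe sets 38.4% did not overlap between the groups, and the share for ratios of other probe sets was not counted. Pairs that share a chain are not independent, because a shift of that chain enters each of their ratios. The ratio rose in 10 of the 13 pairs and dropped in 3.

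All 4 Itgb2 pairs were among the 10. The ratio of Itgax to Itgb2 was 1.26 higher on the log2 scale in the arrays labelled pMIG-TGIF1 (SD 0.026 over those 3 arrays and 0.091 over the 3 pMIG arrays), that of Itgal to Itgb2 1.07, that of Itgam to Itgb2 0.64 and that of Itgad to Itgb2 0.62. The ratio of Itgav was higher against Itgb3 (0.78), Itgb8 (0.74), Itgb5 (0.73) and Itgb1 (0.41). That of Itga6 was higher against Itgb4 (1.29) and Itgb1 (0.69).

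The 3 pairs in which the beta chain gained on its partner were Itga4/Itgb7 (-3.31), Itgae/Itgb7 (-2.71) and Itga4/Itgb1 (-0.49). Both chains were called higher in 3 of the 16 pairs, Itga6/Itgb1, Itgav/Itgb1 and Itgae/Itgb7. No pair with Itga1 or Itga8 was among the 16, although each of these alpha chains was called higher, as Itgb1 was. The within-array ratios overlapped between the groups for Itga5/Itgb1, Itga9/Itgb1 and Itga2b/Itgb3.

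**Figure D3:**
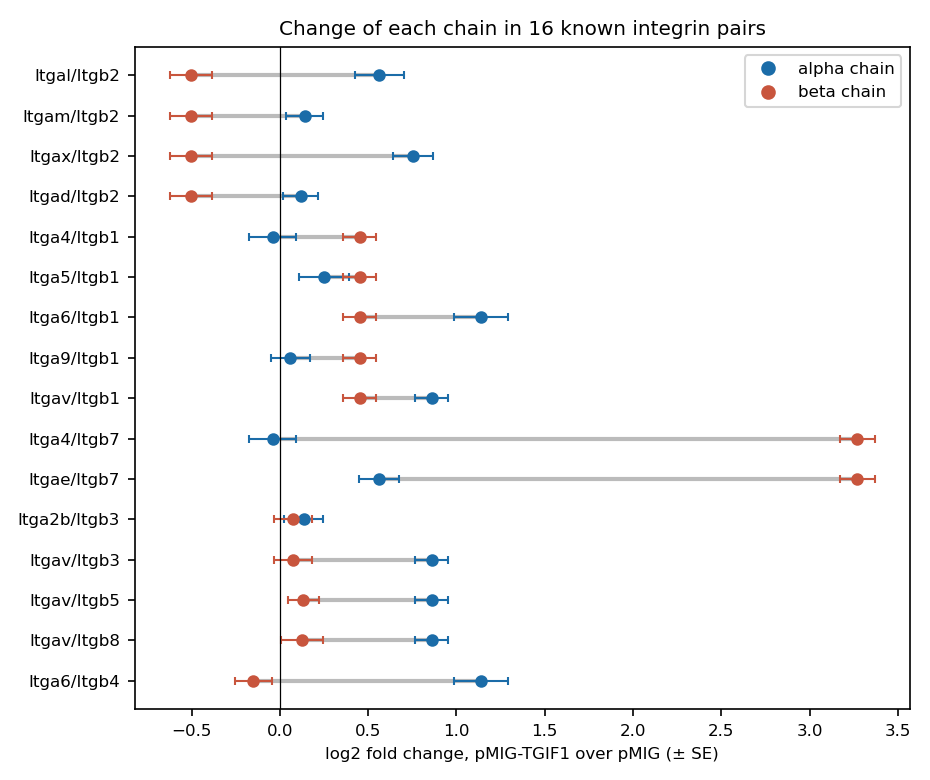
Log2 fold change (± SE, limma) of the alpha chain and of the beta chain in 16 known pairs, arrays labelled pMIG-TGIF1 over pMIG arrays, 3 arrays per group. In the 4 Itgb2 pairs the beta chain stands left of 0 and the alpha chain right of it, although Itgam and Itgad were not called. In the 2 Itgb7 pairs the beta chain stands at 3.27.

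The genes named after a beta chain but not chains themselves moved little. Itgb1bp1, known as ICAP-1, a protein that binds the Itgb1 tail and opposes talin there, read 231, 229 and 239 in the arrays labelled pMIG-TGIF1, against 280, 310 and 322 in pMIG arrays. It was 1.30-fold lower with no overlap (limma adjusted p = 0.0119), and the call was lost without pMIG replicate 3 (adjusted p = 0.0589). Itgb1bp2, the muscle protein melusin, read 62.1, 63.8 and 59.8 in the arrays labelled pMIG-TGIF1, against 75.4, 84.1 and 70.0 in pMIG, and was 1.23-fold lower at the threshold (limma adjusted p = 0.0484). That call was lost in 10 of 17 alternatives, 5 of them by leaving out any array other than pMIG replicate 3 (adjusted p = 0.0731 to 0.179).

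Itgb3bp, which encodes a centromere protein, had 2 probe sets that differed. The brighter read 324, 397 and 367 in the arrays labelled pMIG-TGIF1, against 282, 321 and 272 in pMIG arrays (log2 0.31, limma adjusted p = 0.0644), with a call only when pMIG-TGIF1 replicate 1 was left out (log2 0.39, adjusted p = 0.0349), when the dimmer 50% of probe sets was dropped, or after quantile normalization. The dimmer probe set had a log2 difference of -0.065 (limma adjusted p = 0.786). Itgb1bp3, now named Nmrk2 and encoding a nicotinamide riboside kinase, and Itgbl1, a secreted relative of the beta chains, reached at most 35.2 on any array and were not called (limma adjusted p = 0.911 and 0.654). The alpha chains not yet described, Itga2, Itga3, Itga7, Itga10 and Itga11, read between 28.3 and 70.5 on all arrays, lay in the dimmer 50% and had log2 differences of -0.28 to 0.40. Itga7, a muscle laminin receptor chain, came nearest to a call (limma adjusted p = 0.0537). Without pMIG-TGIF1 replicate 2 it was called higher (log2 0.54, adjusted p = 0.0116), as was Itga3, another laminin receptor chain (log2 0.38, adjusted p = 0.0278).

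Genes that act with integrins were counted with 1 probe set per gene, beside the 11.5% higher and 13.2% lower over all probe sets. Of 26 ligand genes 9 rose and 3 fell, with a median log2 fold change of 0.17. The thrombospondin gene Thbs1, whose protein binds Itgav/Itgb3, was 25.7-fold higher and fibronectin Fn1 7.22-fold higher. Fn1 read 337, 299 and 382 in the arrays labelled pMIG-TGIF1, against 43.7, 44.7 and 52.3 in pMIG arrays. Spp1, which encodes osteopontin, read 11417, 11906 and 12363 in the arrays labelled pMIG-TGIF1, against 1525, 1571 and 2221 in pMIG, and was 6.81-fold higher.

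Cdh1, which encodes E-cadherin, the ligand of Itgae/Itgb7, read 135, 132 and 114 in the arrays labelled pMIG-TGIF1, against 42.1, 36.8 and 35.1 in pMIG arrays. It was 3.35-fold higher (limma adjusted p = 2.48e-06). Icam1, a ligand of Itgal/Itgb2, read 192, 176 and 167 in the arrays labelled pMIG-TGIF1, against 301, 298 and 308 in pMIG (log2 -0.76, limma adjusted p = 0.000181), and was picked out after its values were seen. Other genes of the ligand list went either way. Icam2 was also called lower (log2 -0.41, limma adjusted p = 0.029), Icam4 was not called, and F11r was called higher (log2 1.56, limma adjusted p = 1.27e-05). Vcam1 and Madcam1, ligands of Itga4/Itgb7, were dim and not called (limma adjusted p = 0.106 and 0.505). Fn1, whose protein fibronectin is also bound by Itga4, was 7.22-fold higher.

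Of 24 genes of inside-out activation 2 rose and 4 fell, with a median of 0.064. These were 8.33% higher and 16.7% lower, near the 11.5% and 13.2% over all probe sets. Without the dimmer 50% of the table, 2 of the list were called higher and 5 lower, beside 2350 and 3407 of 12561 probe sets. The list as a whole thus stood near the background, and the genes named next are those with its smallest p. Fermt3, the kindlin of blood cells, read 928, 986 and 1127 in the arrays labelled pMIG-TGIF1, against 2008, 1683 and 1779 in pMIG arrays, and fell by 0.85 on the log2 scale (limma adjusted p = 0.000272). The talin gene Tln1 read 1446, 1430 and 1364 in the arrays labelled pMIG-TGIF1, against 2296, 2256 and 2039 in pMIG, and fell by 0.63 on the log2 scale (limma adjusted p = 0.000585). Rasgrp2, an exchange factor for Rap GTPases, fell by 0.60 on the log2 scale, whereas the GTPase gene Rap1b rose (log2 0.62, limma adjusted p = 0.001).

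Among 31 genes of integrin signalling 7 rose and 5 fell (median 0.087). With each array centred on its median 6 rose and 10 fell. That centring also moved the calls over all probe sets, from 2892 higher and 3308 lower to 2179 and 4870. The Src family kinase genes Fgr (log2 1.32 ± 0.13 SE) and Lyn (0.61 ± 0.088) rose, as did the actin crosslinker Actn1 (0.80 ± 0.091), and the paxillin-binding adaptor Git2 fell (-1.14 ± 0.10).

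Of 21 membrane partners 11 rose and 3 fell (median 0.28), or 1 fell without pMIG replicate 1 or pMIG replicate 3. The tetraspanin Cd9 read 4684, 4670 and 5582 in the arrays labelled pMIG-TGIF1, against 1043, 1288 and 1538 in pMIG arrays, and was 3.90-fold higher. The syndecan Sdc4, a fibronectin coreceptor, was 4.44-fold higher, the galectin Lgals3 2.10-fold and its binding protein gene Lgals3bp 1.97-fold. The share called higher was 52.4% in this list, against 11.5% of all probe sets. That 11.5% includes dim probe sets, whereas only 2 of the 21 partners lay in the dimmer 50% of the table. Without that 50%, 10 partners were called higher, beside 2350 of 12561 probe sets.

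**Figure D4:**
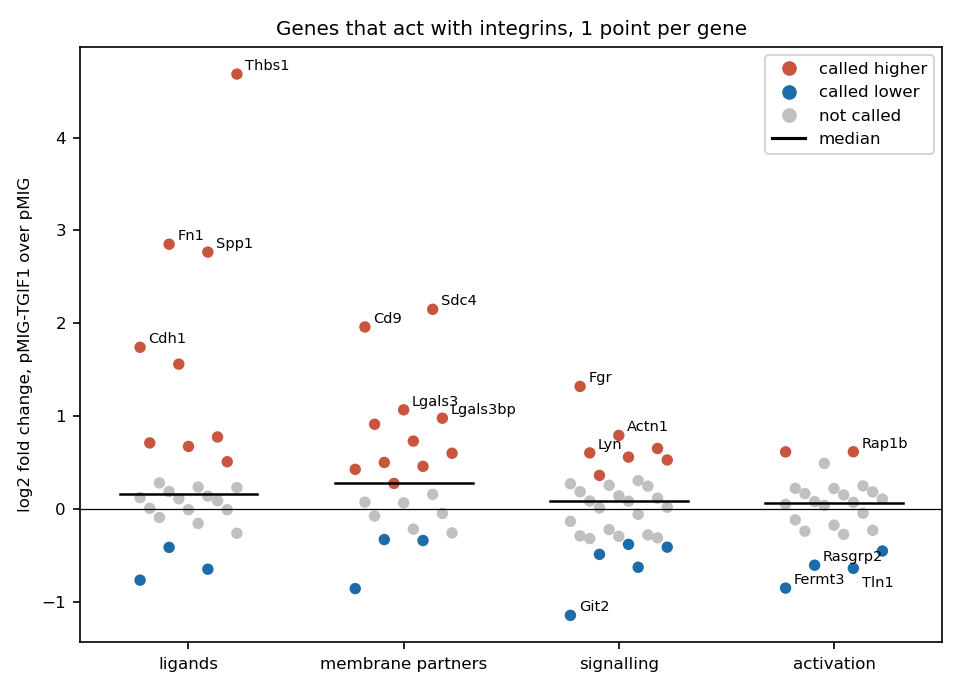
Log2 fold change of genes that act with integrins, arrays labelled pMIG-TGIF1 over pMIG arrays, 1 point per gene, in 4 lists with the median of each as a bar; the 4 genes with the smallest p are named. Ligands reach 4.68 (Thbs1), whereas no gene of the activation list exceeds 0.62.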

How the data were processed

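The authors' deposited values are linear intensities per probe set. Partek and RMA are listed, with no version, per the submitters' processing notes; in general RMA subtracts background, equalizes arrays and combines a probe set's probes. In the authors' deposited table a p-value (rounded) and a fold change with a sign, treated here as a score, stand beside the intensities; the test behind them is not given in the sources used here. Both deposited tables held the same intensities (largest difference 0).

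Groups came from the sample titles. Using R 4.3.3, limma 3.58.1 (lmFit, then eBayes with default moderation and no filter) modelled log2 intensity for the 25123 rows that carry a symbol, as pMIG-TGIF1 minus pMIG over 6 arrays, with Benjamini-Hochberg adjustment over all of them; SE and 95% confidence intervals are those of the moderated fit. The fit was tested on simulated data. The number of arrays limits precision, and no detection call was available. Names of list genes were updated through a RefSeq gene table (GRCm38.p6), and a gene with several probe sets took the brightest. Pair ratios used an exact permutation test in scipy 1.17.1 under Python 3.11.15. Promoter windows are RefSeq's, and motifs were chosen after values were seen. Protein sequences were not used here.

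The members and the gene lists were chosen with earlier results of these data known. The naming rule took every integrin, the 4 smallest p-values of each network list, the 3 brightest genes of each marker list, the RefSeq neighbours within 2 genes of Itgal, Itgam, Itgax, Itgad and Itgb7, and Tgif1. Other named genes were chosen after their values were seen. The B cell list (Pax5, Igll1 and Vpreb1 brightest), the dendritic cell list (Cd209a, Zbtb46, Flt3) and the stroma and endothelium list (Col1a1, Col1a2, Pdgfrb) gave 0 calls by limma, with 0, 0 and 2 genes at an unadjusted p under 0.05, and in the myeloid list 2 of 12 genes rose and 3 fell. The other brightest markers were Lck and Prf1 (T and NK cell), Hdc, Mcpt8 and Gata2 (mast cell and basophil), and Nfe2 and Tubb1 (megakaryocyte and platelet), none of them called. Mcpt8 (log2 -0.59) and Pdgfrb (log2 0.52) were called without pMIG replicate 1, and also without pMIG-TGIF1 replicate 1, and Tubb1 (log2 -0.44) was called without pMIG-TGIF1 replicate 3. With array median centring Lck, Mcpt8, Tubb1 and Elane were called lower (adjusted p = 0.0362, 0.0266, 0.0376 and 0.0481), with quantile normalization Lck and Mcpt8 (both 0.0341), and without the dimmest 50% Mcpt8 (0.0469). Zfp768, next to Itgal, was not called (adjusted p = 0.0971). Alternatives were a replicate block, other moderation, array weights, filters on the dimmest 30% or 50%, other probe set choices, normalizations, an added intensity of 16, and leaving out each array.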

Additional observations from a re-analysis of the deposited data

How the results depend on the processing

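Of the 12 called integrin probe sets, 7 (Itgb7, Itga8, Itga6, Itgav, Itgax, Itga1 and Itgb1) kept direction and call in each alternative that tested them, and 5 lost the call in at least 1; none of the 12 changed sign. Itgb7 ranged from 3.06 to 3.34 on the log2 scale. Calls higher numbered 7 to 11 over the 18 alternatives. Calls lower, 3 with the deposited values, numbered 1 without moderation, 5 with array median centring and 2 on leaving out any array. Of the 22 not called, 6 passed in at least 1 alternative. The replicate numbers did not pair the arrays (correlations of deviations -0.19, -0.11 and -0.049 for the same numbers), and the replicate block gave 9 higher and 2 lower calls. Without moderation the activation list had 1 call higher and the signalling list 3 lower. With array median centring the signalling list had 10 lower, and leaving out 1 array gave 1 to 3 lower membrane partners. Over all probe sets, 2892 higher and 3308 lower calls became 1754 and 1647 without moderation and 2179 and 4870 with array median centring. The cause was not tested.

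None of the estimates that changed sign had been called. The deposited values gave them log2 differences from -0.065 to 0.12, except Vpreb1 (-0.27), which turned without pMIG-TGIF1 replicate 3. With array median centring they were Itgad (10557928) -0.0031, Itga11 -0.016, Itgbl1 -0.025, Itgb3 -0.033, Itga9 -0.049, Itgb1bp3 -0.079, Zbtb46 -0.040 and Flt3 -0.095. With quantile normalization they were Itgad (10557925) -0.0039, Itgb1bp3 -0.018, Itga4 0.028, Cd209a 0.048, Zbtb46 -0.040, Flt3 -0.063 and the pair Itga2b/Itgb3 -0.079, and with array weights Itga4 0.017. On leaving out 1 array the ranges were -0.0056 to 0.22 for Itgb8, -0.052 to 0.13 for Itga9, -0.12 to 0.14 for Itgb1bp3, -0.18 to 0.094 for Itga4, -0.17 to 0.037 for Itgb3bp (10514650), -0.091 to 0.017 for Pax5, -0.50 to 0.13 for Vpreb1, -0.032 to 0.044 for Cd209a, -0.022 to 0.14 for Zbtb46, -0.061 to 0.096 for Flt3, -0.082 to 0.040 for Col1a2 and -0.040 to 0.14 for the pair Itga2b/Itgb3.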
